A study of Mus musculus with 16 samples.

Results

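Alveolar type 1 cell genes were followed as a set of 9 named members, Gprc5a, Emp2, Cav1, Pdpn, Ager, Aqp5, Hopx, Rtkn2 and Akap5, through every array probe annotated to them. Of these genes 8 had a probe and 6 gave a signal above background, out of 11962 genes or unnamed probes tested on the array. Total RNA of lung tissue was hybridised to Illumina mouse BeadChips, 1 array for each of 16 mice, all female, C57BL/6N and 17 weeks old. The 4 groups of 4 mice were mutants (a Cox4-2 knockout line) after ovalbumin challenge, wild-type mice after the same challenge, mutants without treatment, and wild-type mice without treatment. Challenge meant 10 µg ovalbumin in 2 mg alum given intraperitoneally and later 3 exposures of 30 min to a 1% ovalbumin aerosol, a model of allergic airway inflammation. Whether the untreated mice were sensitised is not stated. The labels give neither the deleted part of Cox4-2 nor the time of collection after the last exposure.

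Alveolar type 1 cells are thin, spread cells that line most of the gas-exchange surface of the lung. They share a basement membrane with the capillary endothelium, and they are replaced from alveolar type 2 cells, which make surfactant. Their known genes cover the apical membrane (podoplanin, the water channel aquaporin-5), the basal membrane (the receptor RAGE, encoded by Ager), caveolae and tetraspan proteins (caveolin-1, Emp2), receptors (Gprc5a), nuclear regulators (Hopx) and signalling scaffolds (Akap5, Rtkn2). The arrays measured whole lung RNA, in which fewer cells of a type and less RNA per cell cannot be told apart. Several members are also made elsewhere in the lung: Cav1 is abundant in blood endothelium and Pdpn is a classical marker of lymphatic endothelium.

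A few facts of the series bear on every value. Intensities are the authors' deposited values in arbitrary units, and their log2 values were compared with limma. The p-values are 2-sided, and limma values called adjusted are Benjamini-Hochberg values over the 11962 features, which pass under 0.05. For the second probes of Ager and Aqp5 they are over all 15869 detected probes. Adjusted permutation p-values of correlations are over the pairs tested. Rank correlations between arrays of the same group were 0.957 to 0.986. The targeted gene, Cox4i2 on the array, averaged 144 ± 66.6 in mutant challenged lungs and 248 ± 55.6 in wild-type challenged lungs, and 137 ± 55.9 in mutant untreated lungs and 283 ± 59.8 in wild-type untreated lungs (SD, n = 4 each). The mutant challenged arrays ran from 104 to 243 and the wild-type challenged ones from 182 to 305, so these groups overlapped, while mutant untreated arrays reached at most 189 and wild-type untreated ones at least 247. Skeletal muscle, squamous epithelium and fat transcripts set 3 challenged arrays apart, mutant challenged 2 and wild-type challenged 1 and 3. Acta1, skeletal muscle actin, reached 7831 to 16798 on these 3 arrays and at most 148 on the other 13. The summed intensity of the members was 33825 to 39717 on these 3 arrays and 35552 to 45004 on the other 5 challenged arrays. These sets differ in their mix of genotypes too, and the mean sum was 40907 in mutant challenged and 37430 in wild-type challenged lungs. The limma changes and the list counts below were also computed without these 3 arrays. That leaves 3 challenged against 4 untreated arrays in mutants, and only 2 against 4 in wild type. The correlations and the differences within probe pairs were computed without the 3 arrays too, a choice made after seeing the data.

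**Figure D1:**
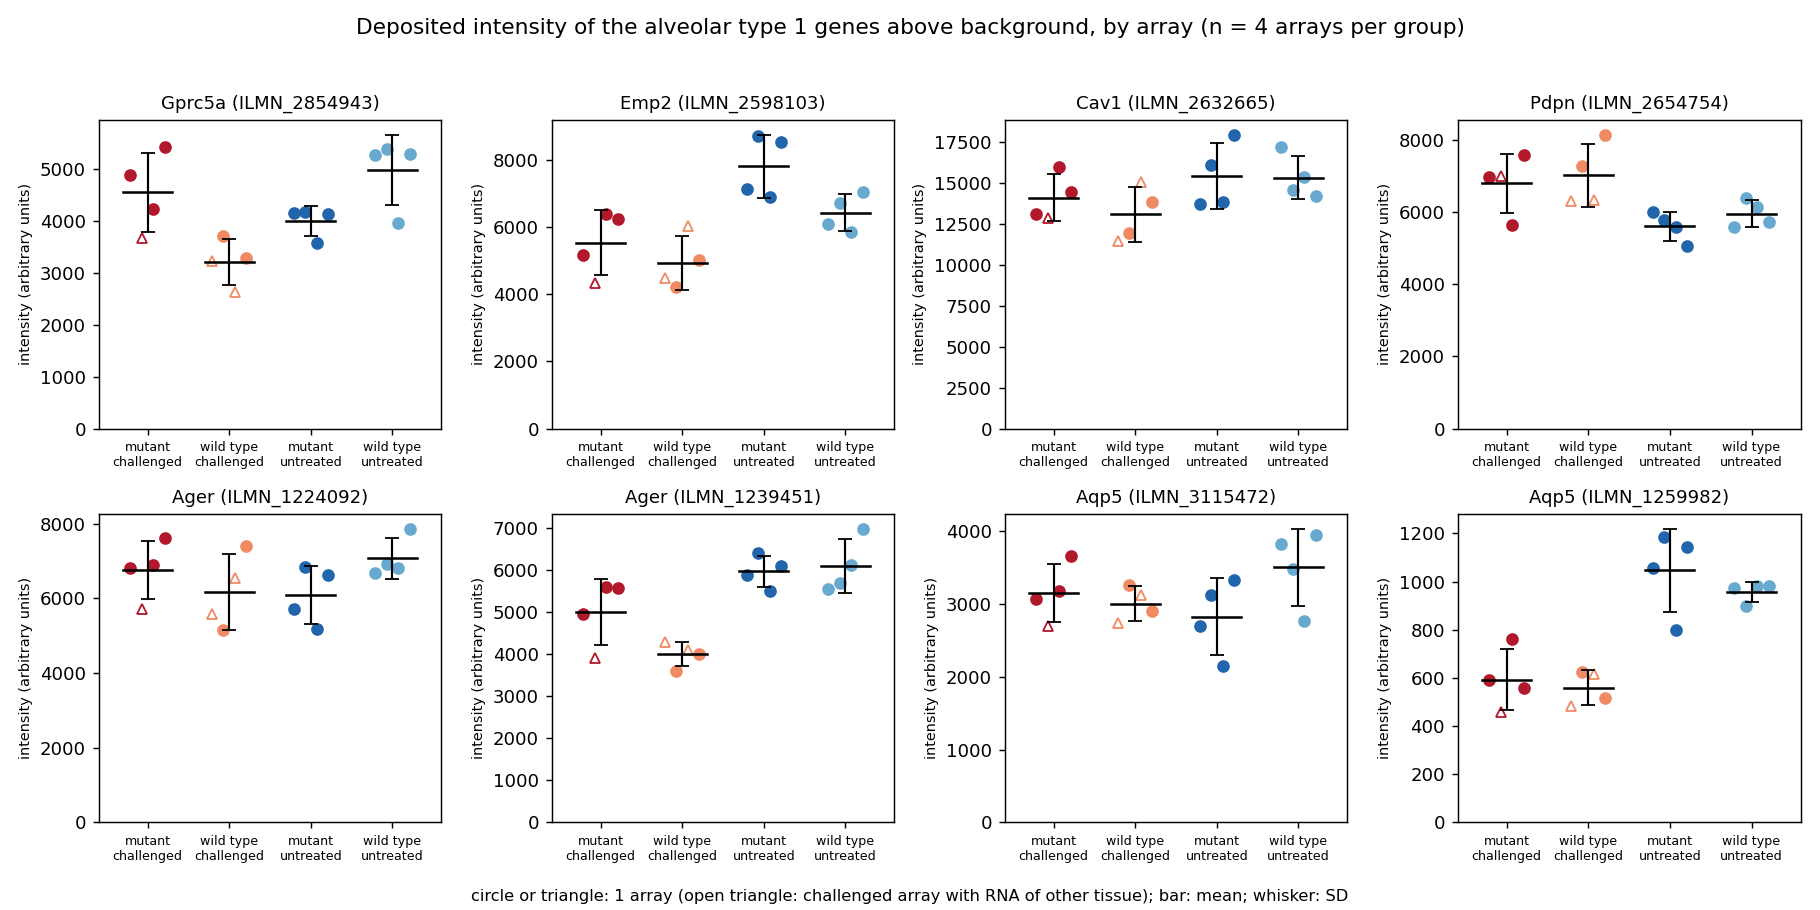
Deposited intensity in arbitrary units (linear axis from 0) on each array for the 8 probes of the 6 members above background, 1 panel per probe, 4 arrays per group with mean and SD; open triangles are the 3 challenged arrays with RNA of other tissue. In the Emp2 panel the 4 mutant challenged arrays (4341 to 6392) lie below the 4 mutant untreated ones (6886 to 8701). In the Aqp5 panel of ILMN_1259982 the challenged arrays lie below the untreated ones of their genotype, while in that of ILMN_3115472 the groups overlap in each genotype.

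After challenge Emp2 was lower and Pdpn was higher over both genotypes, and the other 4 members above background did not pass the test there on the probe used for each gene. The mean log2 change of the 2 genotypes was -0.45 for Emp2 (SE 0.10, limma adjusted p = 0.00289) and 0.25 for Pdpn (SE 0.08, limma adjusted p = 0.0210). These were 1 member higher and 1 lower of 6, while 36.4% of all features were called in this comparison, 17.9% higher and 18.5% lower, so the members' share lay near that of all features. The median change of the 6 members was -0.10, against 0.01 over all features.

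The promoters of these opposite movers are shown because they are the members that passed in the mean over both genotypes, 1 in each direction. They are the 250 bases before the RefSeq gene start (GRCm38.p6), read on the gene's strand from 5′ to 3′, with each CG in capitals. The Emp2 window (chr16:10313969-10314218, minus strand) holds 11 CG and is 62.8% G or C. The Pdpn window (chr4:143299565-143299814, minus strand) holds 2 CG and is 43.2% G or C. Over 32851 such windows the medians were 6 CG and 52.4% G or C.
Emp2: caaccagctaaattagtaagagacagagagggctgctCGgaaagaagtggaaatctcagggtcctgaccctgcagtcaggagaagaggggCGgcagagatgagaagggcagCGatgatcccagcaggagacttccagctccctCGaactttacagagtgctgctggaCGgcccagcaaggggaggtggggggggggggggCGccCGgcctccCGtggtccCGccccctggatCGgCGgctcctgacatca
Pdpn: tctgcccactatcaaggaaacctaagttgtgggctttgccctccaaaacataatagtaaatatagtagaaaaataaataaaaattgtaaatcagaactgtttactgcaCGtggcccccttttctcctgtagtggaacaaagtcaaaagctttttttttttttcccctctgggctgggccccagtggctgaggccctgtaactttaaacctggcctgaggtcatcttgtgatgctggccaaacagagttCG
Windows of 300 bases, from 250 before to 50 after a gene start, were given for 7 of the 9 members (9 windows, none matched for Gprc5a and Rtkn2). The letters GGAATG, the core of the motif bound by TEAD factors, were in 0 of the 9 windows on either strand, against 14.66% of 32851 windows. The palindromic motif of the glucocorticoid receptor was in 0 of 9, against 0.4749% of all windows. With only 9 windows, 0 matches of either motif cannot set the members apart from all windows.

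Emp2 encodes epithelial membrane protein 2, a tetraspan protein of the cell surface (probe ILMN_2598103). It was the 1 member of 6 called in mutants, where 23.3% of all features were called, 11.8% higher and 11.5% lower. Its intensity on arrays 1 to 4 was 5154, 4341, 6392 and 6239.9 in mutant challenged lungs, against 7119.9, 8701, 6886 and 8514 in mutant untreated lungs. All 4 challenged mutants lay below all 4 untreated mutants. Groups that did not overlap were found for 29.6% of all features in this comparison. The log2 change was -0.50 (SE 0.14, 95% interval -0.81 to -0.20), 1.42-fold lower, with a limma adjusted p of 0.0187 and an exact permutation p of 0.0286 (4 against 4 arrays, the smallest possible). In wild-type lungs Emp2 stood at 4486, 4204, 6029 and 5009 after challenge, against 6076, 6721, 5841 and 7048 in untreated lungs. There array 3 of the challenged group, 1 of the 3 with other tissue, overlapped the untreated range, and the log2 change of -0.39 (SE 0.14) did not pass (limma adjusted p = 0.0694). Without the 3 arrays Emp2 passed in both genotypes. It was at -0.39 in mutants (limma adjusted p = 0.0437) and -0.48 in wild type (limma adjusted p = 0.0343), where 2 challenged arrays remained. The call in mutants was lost when mutant challenged array 2, mutant untreated array 2 or mutant untreated array 4 alone was left out (limma adjusted p = 0.0624, 0.0557 and 0.0552), and without wild-type challenged array 3 alone Emp2 passed in wild type (limma adjusted p = 0.0242). The mean over both genotypes stayed called whichever array was left out, at -0.50 to -0.39.

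Emp2 means were highest in mutant untreated lungs. They ran to 5532 ± 966 in mutant challenged and 4932 ± 804 in wild-type challenged lungs, and to 7805 ± 934 in mutant untreated and 6421 ± 559 in wild-type untreated lungs (SD, n = 4 each). In falling order these are mutant untreated, wild-type untreated, mutant challenged and wild-type challenged, and the first step is larger than either SD while each later step is smaller than the SD of one of the pair. The genotype difference of untreated lungs was 0.28 on the log2 scale (SE 0.14) and did not pass (limma adjusted p = 0.450).

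Pdpn encodes podoplanin, also known as T1 alpha, a mucin-like glycoprotein of the apical membrane (probe ILMN_2654754). It stood at 6983, 7009, 5645 and 7587 in mutant challenged lungs, against 6001, 5797, 5589 and 5064 in mutant untreated lungs. In wild-type lungs it stood at 6323, 7273, 6339 and 8153 after challenge, against 5580.1, 6392, 6146 and 5728 without treatment. In each genotype the challenged arrays were mostly the higher ones, and the groups overlapped through mutant challenged array 3 and through wild-type challenged arrays 1 and 3. Neither genotype passed alone, with log2 changes of 0.27 in mutants (SE 0.11, limma adjusted p = 0.0873) and 0.23 in wild type (SE 0.11, limma adjusted p = 0.167). Without mutant challenged array 3 alone, Pdpn passed in mutants, at 0.36 (limma adjusted p = 0.0292). Group means were 6806 ± 823 in mutant challenged and 7022 ± 875 in wild-type challenged lungs, against 5613 ± 402 in mutant untreated and 5962 ± 374 in wild-type untreated lungs (SD, n = 4 each). The challenged means differed from each other by less than their SD, as did the untreated ones. Over both genotypes the change was 0.31 without the 3 arrays with other tissue (limma adjusted p = 0.0145), and 0.21 to 0.29 over leaving out each array (limma adjusted p = 0.00693 to 0.0459).

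Lymphatic endothelium and mesothelium are further sources of podoplanin. Of 8 measured lymphatic endothelium genes, 2 rose and 3 fell in mutants, where 11.8% of all features rose and 11.5% fell, and 1 rose and 2 fell in wild type, where 7.85% rose and 9.28% fell. Lyve1, a hyaluronan receptor of lymphatic vessels, fell by 1.68 in mutants and fell by 1.46 in wild type on the log2 scale (limma adjusted p = 6.5e-05 and 0.000156). Ccl21a, a chemokine of lymphatic vessels and lymph nodes, had log2 changes of -1.43 in mutants and -1.06 in wild type (limma adjusted p = 0.00294 and 0.0180). Thy1, also carried by fibroblasts and T cells, rose by 0.53 in mutants and 0.47 in wild type (limma adjusted p = 0.00757 and 0.0179), and without the 3 arrays with other tissue its wild-type change of 0.35 did not pass (limma adjusted p = 0.118). The summed intensity of the list was 3374 to 4805 in mutant challenged and 3551 to 4810.3 in wild-type challenged lungs, against 7739 to 9007 in mutant untreated and 5802 to 8009 in wild-type untreated lungs. The medians of the list were -0.18 in each genotype, while Pdpn was higher.

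Of 9 measured mesothelium genes, which mark the pleural lining, 5 rose and 2 fell in the mean over both genotypes, where 17.9% of all features rose and 18.5% fell. In each genotype 2 rose and 1 fell, and the median log2 changes were 0.51 in mutants and 0.72 in wild type, against 0.02 and -0.01 over all features. Over both genotypes Gpm6a, a membrane glycoprotein, rose by 0.63, Lrrn4, a leucine-rich repeat membrane protein, rose by 1.19, and Wt1, a transcription factor of mesothelium, rose by 1.32 (limma adjusted p = 0.0022, 0.00575 and 0.00965), while Krt19, which is also in the list of transitional epithelium, fell by 0.54 (limma adjusted p = 0.0025). Over both genotypes 5 rose and 1 fell without the 3 arrays with other tissue, with a median of 0.57. The summed intensity of the list was 4010 to 9838 in mutant challenged and 9182 to 11908 in wild-type challenged lungs, against 5372 to 6071 in mutant untreated and 5821 to 10141 in wild-type untreated lungs. More genes of the list rose than fell where Pdpn rose, and the parts of mesothelium and of lymphatic vessels in the Pdpn signal were not tested.

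Gprc5a, an orphan G protein-coupled receptor induced by retinoic acid and known as a lung tumour suppressor in mice, was lower after challenge in wild-type lungs (probe ILMN_2854943) and did not pass in mutants. In mutants it stood at 4873, 3657, 4228 and 5414 after challenge, against 4145, 4168, 3562 and 4121 without treatment. The lowest challenged value belongs to array 2, which carries other tissue, and the groups overlapped. The log2 change in mutants was 0.17 (SE 0.14, limma adjusted p = 0.399). Gprc5a stood at 3216, 3697, 2622 and 3283 in wild-type challenged lungs, against 5271, 5378, 3958 and 5289 in wild-type untreated lungs. The lowest 2 of these challenged values, 2622 and 3216, belong to arrays 3 and 1, which also carry other tissue. The wild-type groups did not overlap, and the log2 change was -0.63 (SE 0.14, 95% interval -0.93 to -0.34), 1.55-fold lower (limma adjusted p = 0.0067, exact permutation p = 0.0286, the smallest possible). Gprc5a was the 1 member of 6 called in wild type, where 17.1% of all features were called, 7.85% higher and 9.28% lower. Groups that did not overlap were found for 17.9% of features. Without the 3 arrays with other tissue the change was -0.50 (limma adjusted p = 0.0326), and it stayed called whichever single array was left out (limma adjusted p = 0.00258 to 0.0246). With the skeletal muscle score as a covariate it was -0.44 and did not pass (limma adjusted p = 0.0521). The score is the mean log2 level of the measured skeletal muscle genes, less its mean in wild-type untreated lungs. It was 4.59 to 6.05 on the 3 arrays and 0.06 to 0.62 on the other 5 challenged arrays. On untreated arrays it was -0.21 to 0.12, so the score is itself tied to challenge, which limits what the lost call shows.

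The test of the difference between the challenge responses of Gprc5a in mutants and wild type, the interaction, gave 0.80 (SE 0.20, 95% interval 0.38 to 1.22). Its unadjusted limma p was 0.000916, rank 53 of 11962, and its adjusted p was 0.189, so the 2 responses were not shown to differ. No member and no feature (0%) was called in the interaction, where 1410 features had an unadjusted p under 0.05. The interaction of Gprc5a was 0.77 without the 3 arrays (limma adjusted p = 0.160) and 0.71 to 0.91 over leaving out each array (limma adjusted p = 0.0834 to 0.350).

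The group means of Gprc5a were 4543 ± 764 in mutant challenged and 3205 ± 443 in wild-type challenged lungs, and 3999 ± 292 in mutant untreated and 4974 ± 679 in wild-type untreated lungs (SD, n = 4 each). In falling order these are wild-type untreated, mutant challenged, mutant untreated and wild-type challenged. The first steps are smaller than the SD of one of the pair, and the last step is larger than either SD. Between genotypes the log2 difference was 0.50 in challenged lungs (SE 0.14, unadjusted limma p = 0.00265, adjusted p = 0.203, exact permutation p = 0.0571) and -0.31 in untreated lungs (SE 0.14, unadjusted limma p = 0.0440, adjusted p = 0.401, exact permutation p = 0.114). Neither passed. No member was called in either genotype comparison, where 0.0167% of features (2) were called in challenged lungs and 0% in untreated lungs, with 1455 and 1447 features at an unadjusted p under 0.05.

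**Figure D2:**
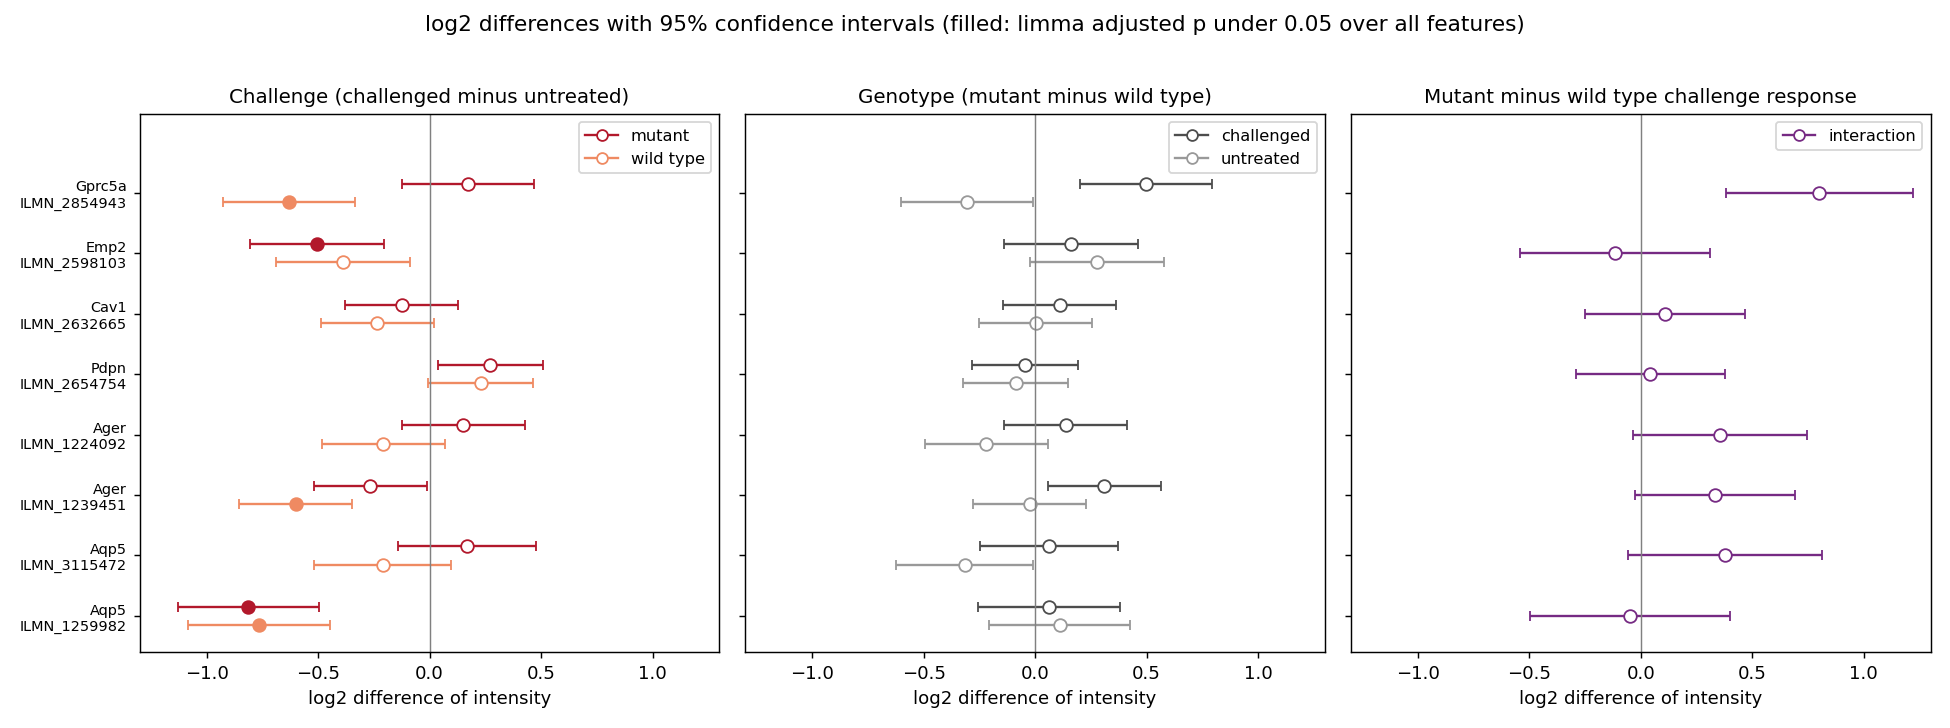
log2 differences of the 8 member probes with 95% confidence intervals from limma, for challenge in each genotype (left), genotype in challenged and untreated lungs (middle) and the interaction (right); filled points passed an adjusted p of 0.05. Filled points stand in the left panel only: Emp2 and ILMN_1259982 of Aqp5 in mutants, and Gprc5a, ILMN_1239451 of Ager and ILMN_1259982 of Aqp5 in wild type.

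Cav1 encodes caveolin-1, the coat protein of caveolae (probe ILMN_2632665). It stood at 13142, 12861, 15987 and 14496 in mutant challenged lungs, against 13739, 16137, 13873 and 17975 in mutant untreated lungs. In wild-type lungs it stood at 11498, 11967, 15058 and 13873 after challenge, against 17213, 14616, 15392 and 14199.8 without treatment. The groups overlapped in each genotype, and challenge changed Cav1 by -0.12 in mutants (95% interval -0.38 to 0.13, limma adjusted p = 0.481) and by -0.23 in wild type (95% interval -0.49 to 0.02, limma adjusted p = 0.189). Group means were 14121 ± 1433 in mutant challenged and 13099 ± 1662 in wild-type challenged lungs, against 15431 ± 2021 in mutant untreated and 15355 ± 1333 in wild-type untreated lungs (SD, n = 4 each), and neighbouring means differed by less than the SD of either group. Of 9 measured genes of caveola coat and neck proteins, Cav1 included, 1 rose and 2 fell in mutants and 0 passed in wild type, where 23.3% and 17.1% of all features were called. Without the 3 arrays with other tissue 1 rose and 0 fell in mutants. Pacsin3, a membrane-bending protein also abundant in skeletal muscle, changed by 1.24 in mutants (limma adjusted p = 0.00314) and by 0.57 in wild type (limma adjusted p = 0.127). Ehd2, an ATPase of the caveola neck, fell by 0.74 in mutants (limma adjusted p = 0.0407; 0.0524 without the 3 arrays, at -0.75) and stood at -0.48 in wild type (limma adjusted p = 0.190).

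Ager encodes RAGE, the receptor for advanced glycation end products, and 2 probes measured it. ILMN_1224092 was the probe used for the gene. It gave 6797, 5717, 6899.5 and 7611 in mutant challenged lungs, 5569, 5146, 6553 and 7406 in wild-type challenged lungs, 5717, 6847, 5173 and 6621 in mutant untreated lungs, and 6681, 6918, 6797 and 7864 in wild-type untreated lungs. Groups overlapped in all 4 comparisons of 2 groups, and the challenge changes were 0.15 in mutants (limma adjusted p = 0.424) and -0.21 in wild type (limma adjusted p = 0.288). ILMN_1239451 gave 4947, 3909.7, 5597 and 5569 in mutant challenged lungs, 4296, 3611, 4094 and 3995 in wild-type challenged lungs, 5893, 6392, 5511 and 6099.7 in mutant untreated lungs, and 5549, 5693, 6122 and 6983 in wild-type untreated lungs. On this probe all 4 challenged wild-type arrays lay below all 4 untreated ones, where 17.2% of all 15869 detected probes had groups that did not overlap.

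In the fit over all detected probes, ILMN_1239451 of Ager stood at -0.27 in mutants (SE 0.12) and did not pass (limma adjusted p = 0.115). In wild type it changed by -0.60 (SE 0.12, limma adjusted p = 0.00403), 1.52-fold lower. Its interaction of 0.33 did not pass either (limma adjusted p = 0.469). Over both genotypes it was -0.43 (limma adjusted p = 0.00109, where 19.6% of detected probes were called lower), while ILMN_1224092 was at -0.03 (limma adjusted p = 0.838). The means of ILMN_1224092 were 6756 ± 782 in mutant challenged and 6168 ± 1014 in wild-type challenged lungs, against 6089.6 ± 782 in mutant untreated and 7065 ± 541 in wild-type untreated lungs (SD, n = 4 each). The means of ILMN_1239451 were 5006 ± 789.8 in mutant challenged and 3999 ± 288 in wild-type challenged lungs, against 5974 ± 370.5 in mutant untreated and 6087 ± 645 in wild-type untreated lungs (SD, n = 4 each). The probe pair gave different calls for the same gene.

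Aqp5 encodes aquaporin-5, the water channel of the apical membrane, also made in airway glands, and its 2 probes differed in the same way. ILMN_3115472, used for the gene, gave 3069.8, 2691, 3181 and 3657 in mutant challenged lungs, 2732, 3264, 3114 and 2905 in wild-type challenged lungs, 2691, 3127, 2148 and 3329 in mutant untreated lungs, and 3826, 3479, 2767 and 3940.1 in wild-type untreated lungs. Its means were 3149.5 ± 398 in mutant challenged and 3004 ± 234 in wild-type challenged lungs, against 2824 ± 523 in mutant untreated and 3503 ± 528 in wild-type untreated lungs (SD, n = 4 each). Its groups overlapped, and the challenge changes were 0.17 in mutants (limma adjusted p = 0.428) and -0.21 in wild type (limma adjusted p = 0.335). ILMN_1259982 gave 594, 457, 760.4 and 558 in mutant challenged lungs, 483, 624, 618 and 516 in wild-type challenged lungs, 1056, 1187, 800.1 and 1144 in mutant untreated lungs, and 973, 897, 984 and 982 in wild-type untreated lungs. Its means were 592 ± 126 in mutant challenged and 560.1 ± 71.6 in wild-type challenged lungs, against 1047 ± 173 in mutant untreated and 959 ± 41.4 in wild-type untreated lungs (SD, n = 4 each). Every challenged array lay below every untreated array of its genotype.

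In the fit over all detected probes, ILMN_1259982 of Aqp5 changed by -0.81 in mutants (SE 0.15, limma adjusted p = 0.00191), 1.76-fold lower, and by -0.77 in wild type (SE 0.15, limma adjusted p = 0.00369), 1.70-fold lower. Among all 15869 detected probes 12.8% were called lower in mutants and 8.9% in wild type, and the groups did not overlap for 29.4% and 17.2%. Without the 3 arrays with other tissue the changes were -0.70 in mutants (limma adjusted p = 0.00703) and -0.74 in wild type (limma adjusted p = 0.0105). The platform annotation names Aqp5 for this probe, while the symbol column of the other deposited table names it LOC100046616, so which transcripts it reports is less certain than for ILMN_3115472.

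**Figure D3:**
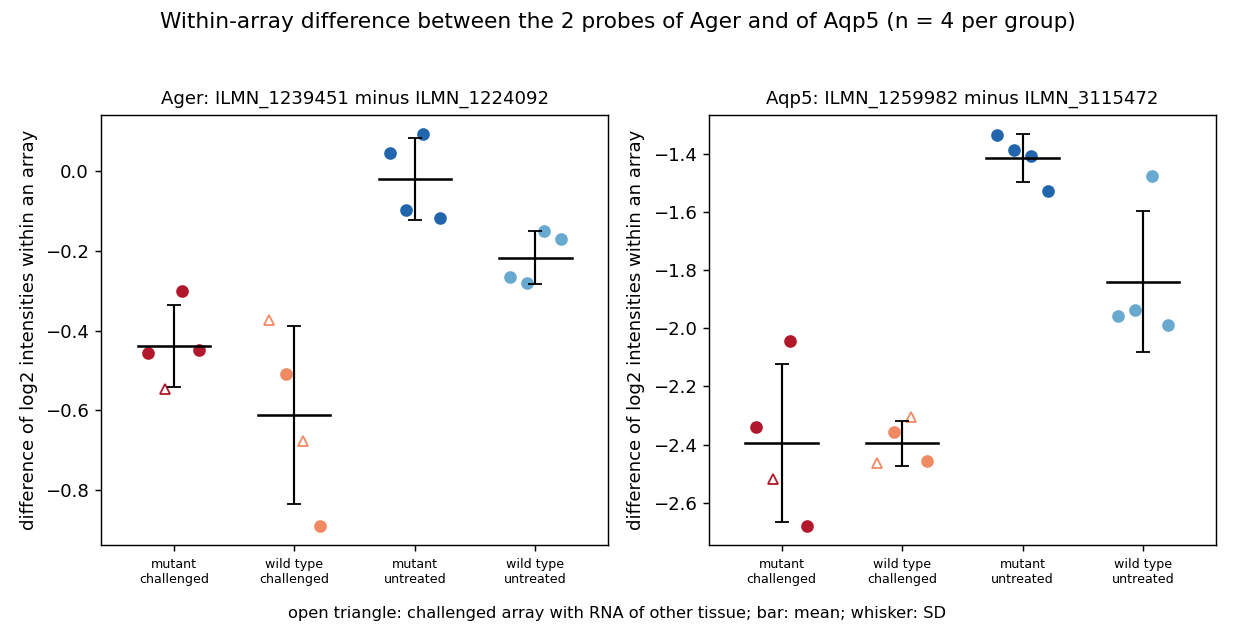
Difference of log2 intensity between the 2 probes of Ager (left) and of Aqp5 (right) within each array, with mean and SD, 4 arrays per group; open triangles are the 3 challenged arrays with RNA of other tissue. The size of a difference in one group has no meaning of its own, since probes differ in brightness, but challenged arrays lie below the untreated arrays of their genotype for each gene.

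Within an array, where RNA amount and array brightness are shared, the probe pairs parted with challenge in both genotypes. For Ager the difference between ILMN_1239451 and ILMN_1224092 was -0.44 ± 0.10 in mutant challenged and -0.61 ± 0.22 in wild-type challenged lungs, against -0.02 ± 0.10 in mutant untreated and -0.22 ± 0.07 in wild-type untreated lungs (log2, SD, n = 4 each). It changed with challenge by -0.42 in mutants and -0.39 in wild type, without overlap in either (exact permutation p = 0.0286 for each). For Aqp5 the difference between ILMN_1259982 and ILMN_3115472 was -2.39 ± 0.27 in mutant challenged and -2.40 ± 0.08 in wild-type challenged lungs, against -1.41 ± 0.08 in mutant untreated and -1.84 ± 0.24 in wild-type untreated lungs (log2, SD, n = 4 each). It changed by -0.98 in mutants and -0.56 in wild type, again without overlap (exact permutation p = 0.0286 for each). Permuting arrays within each genotype, the mean over genotypes was -0.41 for Ager and -0.77 for Aqp5, each with an exact p of 0.000408, the smallest that 4900 arrangements can give. Without the 3 arrays with other tissue the changes were -0.38 for Ager and -0.94 for Aqp5 in mutants (exact permutation p = 0.0286 for each, 3 against 4 arrays), and -0.48 and -0.57 in wild type, where 2 against 4 arrays cannot go below an exact p of 0.0667. This comparison was chosen after the probe values were seen. The pairs also differed between genotypes in untreated lungs, mutant minus wild type. This difference was 0.20 for Ager, without overlap (exact permutation p = 0.0286), and 0.43 for Aqp5, with overlap (exact permutation p = 0.0571). In challenged lungs it was 0.17 for Ager (exact permutation p = 0.229) and 0.00 for Aqp5, with overlap in each.

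Disagreement as large as that of Ager was not rare on the array, while one as large as that of Aqp5 was uncommon. Of 1978 genes with exactly 2 detected probes, the median gap between the mean challenge changes of the probes was 0.20, and a gap as large as that of Ager was found in 22.2% and as large as that of Aqp5 in 3.08%. Among 2837 genes with several detected probes the call differed between probes in 43.9%. After the group means were taken off, the probes of a pair still moved together over the 16 arrays for Ager, at Pearson r = 0.68 (permutation p = 0.00395, adjusted over the 2 pairs 0.0079) and Spearman rho = 0.68 (permutation p = 0.00703, adjusted 0.0141). Leaving out the 2 arrays farthest from the median gave 0.58. For Aqp5 r was 0.60 (permutation p = 0.0262, adjusted 0.0262) and rho 0.53 (permutation p = 0.0613, adjusted 0.0613), and r fell to 0.29 without the 2 farthest arrays, so that relation rests on them. Over the 13 arrays without other tissue r was 0.75 for Ager and 0.49 for Aqp5. The files give no probe sequences, so the exons or transcript ends read by each probe were not analysed here.

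Hopx, Rtkn2 and Akap5 could not be compared. Hopx encodes a homeodomain-only cofactor of transcription, and its probe (ILMN_2669426) was above the background limit of 16.8 on 0 of 16 arrays, with intensities of -19.8 to -0.68. Rtkn2 encodes rhotekin 2, a signalling scaffold, and its probe (ILMN_3087828) was above the limit on 1 of 16 arrays, wild-type challenged 3 at 22.7, and otherwise at 8.4 or less. Akap5 encodes an anchoring protein for protein kinase A, and no probe carried its symbol in the annotation used, so it was not analysed here. For Hopx and Rtkn2 a signal not above background bounds what these probes saw and does not show that the genes were silent.

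The 6 members above background did not move as 1 block from mouse to mouse. With group means taken off, Pearson correlations over 16 arrays ran from -0.37 to 0.81 over 15 pairs, with a median of 0.30 and 11 of 15 positive. Ager and Emp2 moved together most closely, at r = 0.81 (permutation p = 0.0022, adjusted over 15 pairs 0.0330) and rho = 0.81 (permutation p = 0.0026, adjusted 0.0390), and r was 0.87 without the 2 arrays farthest from the median. Gprc5a and Aqp5 had r = 0.68 (permutation p = 0.0054, adjusted 0.0405) and rho = 0.61 (permutation p = 0.0132, adjusted 0.0496), and r was 0.49 without the 2 farthest. No other pair passed with r, and with rho Emp2 also passed with Aqp5 (rho = 0.66) and with Cav1 (rho = 0.71, adjusted permutation p = 0.0496 for each). All these values are of the probe used for each gene. On the second probes, r was 0.20 for Gprc5a with ILMN_1259982 of Aqp5, and 0.74 for Emp2 with ILMN_1239451 of Ager. The relation of Gprc5a and Aqp5 was thus seen on 1 Aqp5 probe only. Among the probes used for the genes, Pdpn had its lowest correlations with Cav1 at -0.37 and with Emp2 at -0.28 (adjusted permutation p = 0.404 and 0.561). With the second probe of Aqp5 it had r = -0.40. Over the 13 arrays without other tissue r was 0.81 for Ager and Emp2 and 0.79 for Gprc5a and Aqp5, and the range over the 15 pairs was -0.46 to 0.81. All pairs share array and RNA sample.

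The features most like the mean of the 6 members over the 16 arrays, with group means taken off, were Ssx2ip (r = 0.88, rho = 0.86), the unnamed probe ILMN_1247878 (r = 0.87, rho = 0.84), Csgalnact1 (r = 0.84, rho = 0.85), Tmod2 (r = 0.83, rho = 0.81), Btbd3 (r = 0.83, rho = 0.84), Rem2 (r = 0.82, rho = 0.74), Sppl3 (r = 0.82, rho = 0.70) and Clic3 (r = 0.82, rho = 0.74). They are the highest 8 of 11956 ranked features and are given as a description. Over the 13 arrays without other tissue they had r of 0.72 to 0.89 and ranks between 4 (Sppl3) and 120 (Tmod2). Clic3, a chloride channel protein, is also in the list of other alveolar type 1 genes. Sppl3 had r = -0.74 with the skeletal muscle score, and the members' mean had r = -0.38 and rho = -0.10 with it.

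A wider list of 32 other alveolar type 1 genes, of which 28 were measured, had more falls than rises in wild type. There 1 rose and 12 fell, where 7.85% of all features rose and 9.28% fell, with a median log2 change of -0.17 against -0.01 over all features. In mutants 4 rose and 8 fell, where 11.8% of all features rose and 11.5% fell, with a median of -0.13 against 0.02. In mutants 4 rose and 4 fell without the 3 arrays with other tissue, with a median of -0.08 against 0.02 over all features. With the skeletal muscle score as a covariate 6 rose and 7 fell in mutants, with a median of -0.10 against 0.02. The excess of falls in the mutant counts was thus not seen in these settings, while the median stayed below that of all features. In wild type the counts were 1 higher and 11 lower without the 3 arrays (median -0.08) and 1 higher and 8 lower with the covariate (median -0.03). Pxdc1 fell by 1.52 in mutants and fell by 1.74 in wild type (limma adjusted p = 0.000212 and 5.44e-05). Timp3, an inhibitor of matrix metalloproteinases, had log2 changes of -0.66 in each (limma adjusted p = 0.000411 and 0.000364). Scnn1g, the gamma subunit of the epithelial sodium channel, had log2 changes of -0.44 in mutants and -0.60 in wild type (limma adjusted p = 0.00469 and 0.000933). S100a6, a calcium-binding protein made by many cell types, rose by 0.85 and 0.77 (limma adjusted p = 0.00111 and 0.00234). The members themselves gave 0 higher and 1 lower in each genotype, with medians of 0.16 in mutants and -0.22 in wild type. These medians rest on the probe used for each gene. In mutants Ager and Aqp5 stood at 0.15 and 0.17 on those probes, and at -0.27 and -0.81 on their second probes. In wild type they stood at -0.21 each, and at -0.60 and -0.77 on the second probes.

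**Figure D4:**
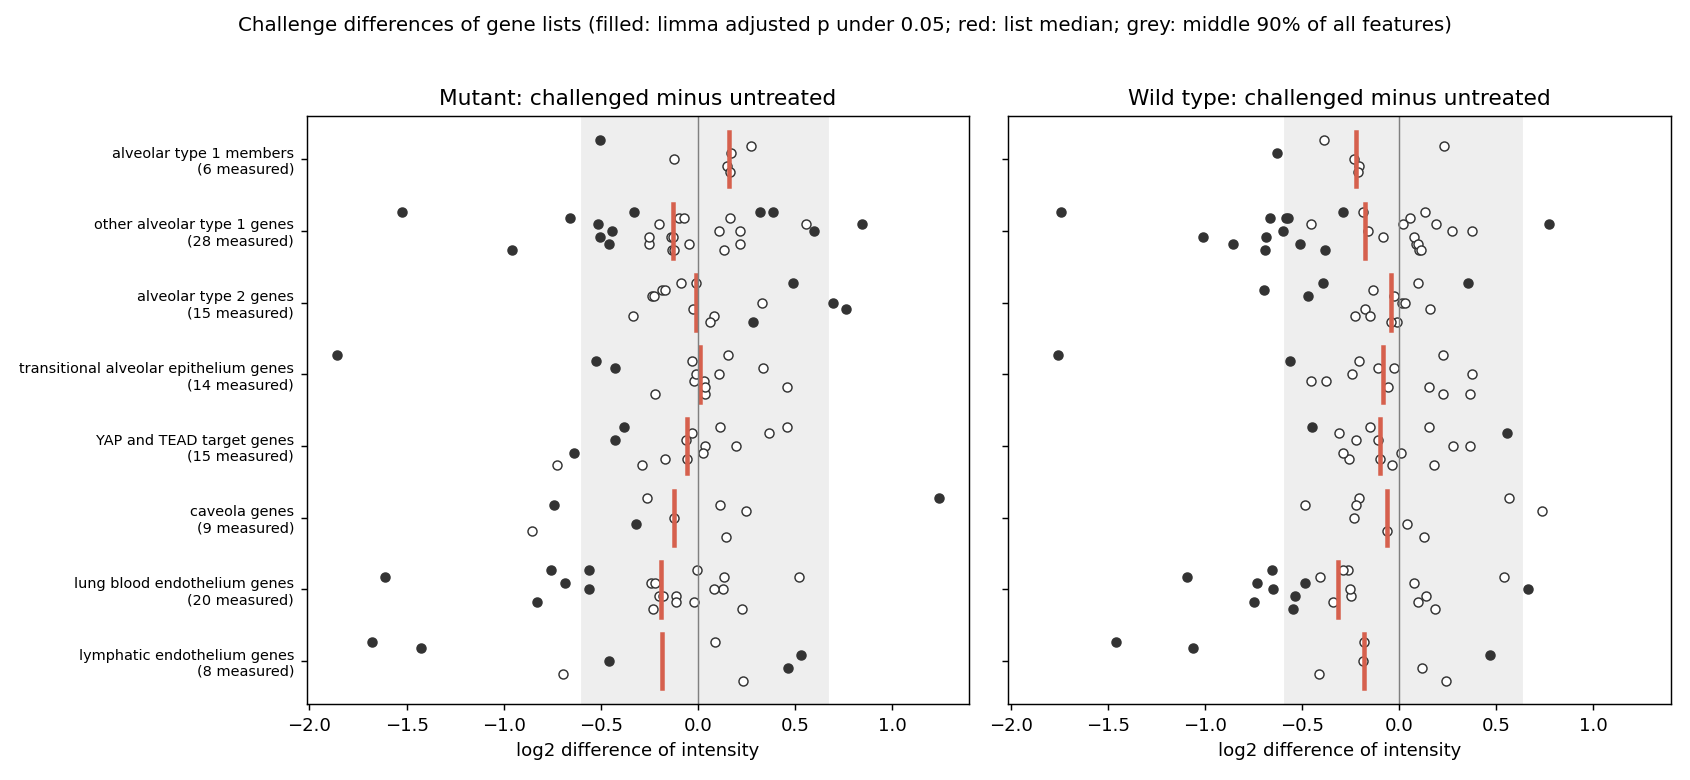
log2 challenge difference of each measured gene of 8 lists in mutants (left) and wild type (right); filled points passed limma's adjusted p of 0.05, red bars are list medians and the grey band holds the middle 90% of all features. Most filled points of the other alveolar type 1 genes lie left of 0 in wild type (12 of 13), while the members are 1 filled point of 6 in each panel.

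Neighbouring cells of the alveolus are given beside these counts. The shares of all features called were 11.8% higher and 11.5% lower in mutants, and 7.85% higher and 9.28% lower in wild type. Of 15 measured alveolar type 2 genes 4 rose and 0 fell in mutants, and 1 rose and 3 fell in wild type. Leaving out the 3 arrays with other tissue, 3 rose and 0 fell in mutants, and 1 rose and 2 fell in wild type. Sftpc, surfactant protein C, rose by 0.49 in mutants and 0.36 in wild type (limma adjusted p = 0.00293 and 0.0196). Abca3, the lipid transporter of lamellar bodies, stood at -0.18 in mutants (limma adjusted p = 0.211) and fell by 0.70 in wild type (limma adjusted p = 0.000606). Sftpb, surfactant protein B, stood at -0.24 in mutants (limma adjusted p = 0.190) and fell by 0.47 in wild type (limma adjusted p = 0.0205). No gene of the list passed in the interaction, where 0% of all features were called. The summed intensity of the list was 137953 to 147601 in mutant challenged and 121835 to 145996 in wild-type challenged lungs, against 128465 to 138774 in mutant untreated and 127018 to 146962 in wild-type untreated lungs.

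Of 20 measured genes of lung blood endothelium 0 rose and 6 fell in mutants, where 11.5% of all features fell, and 1 rose and 8 fell in wild type, where 9.28% fell. Leaving out the 3 arrays with other tissue, 6 fell in mutants and 7 in wild type. Ace, angiotensin-converting enzyme, fell by 1.61 in mutants and fell by 1.10 in wild type (limma adjusted p = 0.000843 and 0.00851). Car4, a carbonic anhydrase of the capillary surface, had log2 changes of -0.76 in mutants and -0.66 in wild type (limma adjusted p = 0.000637 and 0.00162). Cdh5, the cadherin of endothelial junctions, had log2 changes of -0.56 in mutants and -0.65 in wild type (limma adjusted p = 0.00597 and 0.00325). The list's summed intensity was 46816 to 58221 in mutant challenged and 45631 to 51818 in wild-type challenged lungs, against 54388 to 67796 in mutant untreated and 57102 to 65556 in wild-type untreated lungs. The part of the endothelial signal in the values of Cav1 and Emp2 was not tested.

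Genes of the transitional state between alveolar type 2 and type 1 cells fell in 3 of 14 and rose in 0 in mutants, and fell in 2 of 14 and rose in 0 in wild type. These counts lie near the shares of all features that fell, 11.5% in mutants and 9.28% in wild type, and without the 3 arrays with other tissue 2 fell in mutants while 1 rose and 1 fell in wild type. Cdkn1a, the cell cycle inhibitor p21, fell by 1.86 in mutants and fell by 1.75 in wild type (limma adjusted p = 3.99e-05 and 4.59e-05), and Krt19, a simple epithelial keratin, had log2 changes of -0.53 in mutants and -0.56 in wild type (limma adjusted p = 0.0343 and 0.0319). Krt19 passed in neither genotype without the 3 arrays, at -0.45 in mutants and -0.36 in wild type (limma adjusted p = 0.0764 and 0.202). Of 15 measured targets and members of the YAP and TEAD pathway, known for type 1 cell identity in mice, 0 rose and 3 fell in mutants, and 1 rose and 1 fell in wild type, also near those shares. Wwc1, an upstream regulator of that pathway, had log2 changes of -0.38 in mutants and -0.45 in wild type (limma adjusted p = 0.0182 and 0.00928), and its mutant change of -0.36 did not pass without the 3 arrays (limma adjusted p = 0.0536). Tgfb2, a growth factor, stood at 0.37 in mutants (limma adjusted p = 0.0553) and rose by 0.56 in wild type (limma adjusted p = 0.0102).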

How the data were processed

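Total lung RNA of 16 mice was measured, 1 array per mouse. Trizol extraction, RNeasy clean-up and labelling as biotin cRNA with an Ambion MessageAmp kit are recorded per the labels' protocols. The deposited values are intensities on a linear scale. As the values show, the authors subtracted background (23.5% to 23.8% of the values of an array lie below 0) and quantile normalised. The method of either step was not given in the sources used here. Per the submitters' processing notes GenomeStudio 2011.1 was used, with no role given. A non-normalised table (32 columns) was not used, since its column names match no sample label; only its probe symbols were read. No slide or scan date is given, so no batch was tested.

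A normal-exponential model (noise SD 10.2, from the values below 0) with an offset of 16 preceded log2, so changes of dim probes are understated. Of 25697 probes 15869 lay above 16.8, percentile 95 of the noise, on at least 4 of 16 arrays. The probe of highest mean represented a gene, which left 11962 features. Tests used limma 3.58.1 (R 4.3.3; lmFit, contrasts.fit and eBayes; 2-sided; 1 coefficient per group; 12 residual and 3.93 prior degrees of freedom), Benjamini-Hochberg over all features, and exact permutation over arrays (smallest p 0.0286 for 4 against 4). Second probes were tested in a fit over all 15869 detected probes. The fit was tested on simulated data. The number of arrays limits the precision.

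The members, lists and tests were chosen with earlier results of these data known. All members are named. From each other list up to 4 genes of smallest p in the mean challenge effect could be named, and the 8 features most like the members. Listed symbols that were old were updated through RefSeq synonyms, and promoter windows came from RefSeq (GRCm38.p6). The lists were other alveolar type 1, alveolar type 2, transitional, YAP and TEAD, caveola, blood endothelium, lymphatic endothelium and mesothelium genes, and markers of other tissue.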

Additional observations from a re-analysis of the deposited data

Results flagged for a closer look

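In groups of 4 arrays, the highest or lowest array was called far from the others by Dixon's test at its 95% critical value. This was so in 3 of 32 groups looked at, and chance flags about 1 in 20. Gprc5a had its lowest mutant untreated value, 3562, on array 3, where the other 3 arrays lay at 4121 to 4168. Gprc5a also had its lowest wild-type untreated value, 3958, on array 3, where the other 3 lay at 5271 to 5378. Without that wild-type array the challenge change of Gprc5a in wild type was -0.74. The dimmer Aqp5 probe, ILMN_1259982, had its lowest wild-type untreated value, 897, on array 2, where the other 3 lay at 973 to 984. The cause of these low values was not tested.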

How the results depend on the processing

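No member changed direction with a call under any alternative. Over the alternatives for single probes, 1287 values kept their side of the threshold, 13 passed in addition and 4 no longer passed. With 1 member called in wild type, leaving out the 3 arrays with other tissue gave 2, the muscle score as covariate 0, the mean of all detected probes of a gene 3, and 2 came with trend and robust empirical Bayes; the mean of probes added Ager (-0.40, limma adjusted p = 0.0264) and Aqp5 (-0.49, limma adjusted p = 0.0213). In mutants the covariate gave 2 members, adding Pdpn (0.32, limma adjusted p = 0.0468). Over both genotypes the mean of probes gave 4 members against 2. Over leaving out each array, members called ranged from 0 to 2 in mutants, 1 to 2 in wild type and 2 to 3 over both genotypes, and were 0 to 0 in the genotype comparisons and the interaction. Gprc5a over both genotypes, at -0.23 (limma adjusted p = 0.0794), passed without mutant challenged array 4 (limma adjusted p = 0.0427), without wild-type untreated array 3 (limma adjusted p = 0.0284) and with trend and robust empirical Bayes (limma adjusted p = 0.0494).

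Counts over all features were 2791 in mutants (1977 to 3074 over leaving out each array) and 2049 in wild type (1375 to 2427, and 1161 from the 8 arrays of that comparison alone). The mean effect gave 4351 (3849 to 4678). The genotype comparison of challenged lungs gave 2, and 52 without the 3 arrays, 1 with the covariate, 4 with an offset of 50, 1 with a floor in place of the background model, 0 from its 8 arrays alone, 5 with trend and robust empirical Bayes, and 1 to 17 over leaving out each array. That of untreated lungs gave 0, and 1 with an offset of 50, a floor, the mean of probes or trend and robust empirical Bayes, 3 from its 8 arrays alone, and 0 to 21 over leaving out each array. The interaction gave 0, and 18 without the 3 arrays, none of them a member, and 0 to 4 over leaving out each array. The cause was not tested. A refit of the background model by limma, every detected probe tested, the within-array difference of probes, and correlations without the 3 arrays were chosen after seeing the data.

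Replicate numbers are shared between groups, but the labels do not say that they pair mice. Over 24 same-numbered pairs the deviations from group means correlated at -0.47 to 0.24, with 3 over 0.1, and 5 of 16 arrays correlated best with their own number, so the numbers were not taken to pair the samples. With the replicate number as a block, 1 feature against 2 passed in the genotype comparison of challenged lungs, and Gprc5a passed over both genotypes (-0.23, limma adjusted p = 0.0485). The block changed no other call of a member.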
